A study of Mus musculus with 10 samples.

Results

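The genes described here are 10 members of the NRF2 and BACH1 antioxidant axis: the transcription factor genes Nfe2l2 (NRF2) and Bach1, the heme oxygenase gene Hmox1, and Nqo1, Gclc, Gclm, Gsr, Txnrd1, Srxn1 and Osgin1. They were chosen by name, with earlier results of these data known. They were matched by Ensembl identifier and make up 10 of the 55401 genes counted. RNA was sequenced from Neuro2a, a mouse neuroblastoma line whose genotype is given as wild-type in every library. All cells were transfected with plasmid using Lipofectamine, and the labels give an incubation of 72 h before harvest. The dCas9-SCN9A group (3 libraries) received a Cas9 that binds DNA without cutting it, directed at the sodium channel gene SCN9A, and its control, dCas9-empty (3 libraries), received the dCas9 plasmids named empty. The ZF-SCN9A group (2 libraries) received an engineered zinc-finger protein directed at SCN9A, and mCherry (2 libraries), a plasmid for a red fluorescent protein, was taken as its control because the labels give no other. The study asked how gene expression changed when SCN9A was repressed with either tool. Neither the binding site of each repressor nor the make-up of dCas9-empty is given in the sources used here, and the labels do not say whether replicates were separate cultures, so p-values cover the spread between these libraries alone, which may be technical.

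As background, NRF2 is kept low in unstressed cells by KEAP1, which hands it to a ubiquitin ligase. Oxidants and electrophiles disable KEAP1, and NRF2 then pairs with small MAF proteins on antioxidant response elements near genes for glutathione synthesis, thioredoxin reduction and quinone reduction. BACH1 also pairs with small MAF proteins, on the same kind of element, and represses; heme binds BACH1 and removes it from DNA. Hmox1, which encodes the inducible enzyme that breaks heme into biliverdin, carbon monoxide and iron, is the best known BACH1 target. The enzymes of this axis protect neurons and neuron-like cells from oxidative damage.

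Promoter windows from RefSeq (GRCm38.p6) were found for 7 of the 10 genes, and 5 are shown. Bach1 is shown because the gene itself changed, and the others carry the letters of the elements that these factors read. The window of Nfe2l2, which carries a match too, is not printed. The 250 bases before the start are printed on the gene's strand. Capitals mark TGACNNNGC, the core of the antioxidant response element (Gclm, Txnrd1), or TGAGTCAGC, a Maf recognition element core (Osgin1, Srxn1), on either strand. In Gclm, Txnrd1 and Osgin1 the match lies on the opposite strand, so its reverse complement is what the capitals spell.
Bach1, plus strand, chr16:87698704-87698953: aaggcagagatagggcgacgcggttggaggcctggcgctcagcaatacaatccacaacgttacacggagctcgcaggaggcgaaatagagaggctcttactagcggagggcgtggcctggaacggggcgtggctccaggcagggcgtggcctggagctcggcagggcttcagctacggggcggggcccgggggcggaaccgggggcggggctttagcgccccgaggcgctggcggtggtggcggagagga
Osgin1, plus strand, chr8:119436897-119437146: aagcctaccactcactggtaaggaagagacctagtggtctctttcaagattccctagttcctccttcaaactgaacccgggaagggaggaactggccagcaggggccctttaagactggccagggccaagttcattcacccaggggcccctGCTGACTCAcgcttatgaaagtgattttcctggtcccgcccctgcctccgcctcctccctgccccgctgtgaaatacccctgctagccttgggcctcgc
Srxn1, plus strand, chr2:152105274-152105523: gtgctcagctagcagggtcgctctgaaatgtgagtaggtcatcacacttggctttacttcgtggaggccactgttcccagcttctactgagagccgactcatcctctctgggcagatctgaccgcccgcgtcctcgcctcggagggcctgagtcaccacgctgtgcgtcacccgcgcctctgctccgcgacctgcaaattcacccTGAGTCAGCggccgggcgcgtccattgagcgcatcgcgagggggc
Gclm, plus strand, chr3:122245307-122245556: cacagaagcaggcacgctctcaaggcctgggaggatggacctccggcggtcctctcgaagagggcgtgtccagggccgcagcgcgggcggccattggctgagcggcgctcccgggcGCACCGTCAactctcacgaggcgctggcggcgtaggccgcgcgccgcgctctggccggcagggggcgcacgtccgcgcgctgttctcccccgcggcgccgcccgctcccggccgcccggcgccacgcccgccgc
Txnrd1, plus strand, second of its 3 listed starts, chr10:82858956-82859205: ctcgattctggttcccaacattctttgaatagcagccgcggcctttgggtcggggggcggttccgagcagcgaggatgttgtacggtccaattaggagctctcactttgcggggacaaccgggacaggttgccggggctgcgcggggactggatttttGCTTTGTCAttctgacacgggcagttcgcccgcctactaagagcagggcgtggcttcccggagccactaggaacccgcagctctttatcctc

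The match begins 99 bases before the start in Osgin1, 45 in Srxn1, 134 in Gclm and 92 in Txnrd1. The Osgin1 start and the printed Txnrd1 start are RefSeq starts that lie inside the gene's span, not at its first base. Nfe2l2 holds TGACNNNGC too, 240 bases before its start, and Srxn1 has a further copy just after its start. The Bach1 and Nqo1 windows and the remaining windows of Txnrd1 hold neither run of letters. Over all 32851 RefSeq windows of 300 bases, which add the first bases after the start, 12.4% hold TGACNNNGC and 0.414% hold TGAGTCAGC. In the Srxn1 window, which holds both, they do not overlap. The second motif was added after the windows had been read. A match describes letters only, and binding was not measured. Hmox1, Gclc and Gsr are named without a window.

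All 10 genes passed the filter on low counts in both arms. Levels are given as CPM, a gene's count relative to the TMM-scaled total of its library, with each arm scaled on its own. Changes are log2 fold changes (with the standard error, SE) from edgeR's quasi-likelihood test, and a gene was called changed at an adjusted p under 0.05 (Benjamini-Hochberg over all genes tested). With the zinc finger 3 of the 10 genes were called, where 4.72% of the 12899 genes tested were called. Since the 10 were chosen with earlier results of these data known, that count is no test of an excess. Hmox1 rose, against a background of 1.95% of genes called higher, and Bach1 and Osgin1 fell, against 2.78% called lower. With dCas9 none of the 10 was called by edgeR or limma-voom, where edgeR called 0.041% of 14628 genes. In DESeq2, which set no adjusted p for Nqo1, Srxn1, Osgin1 and Bach1, the other 6 were not called either. In edgeR 2 of the 10 had an unadjusted p under 0.05 with dCas9, beside 10.1% of all genes. The other 7 genes had an adjusted p of at least 0.31 in both arms.

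**Figure D1:**
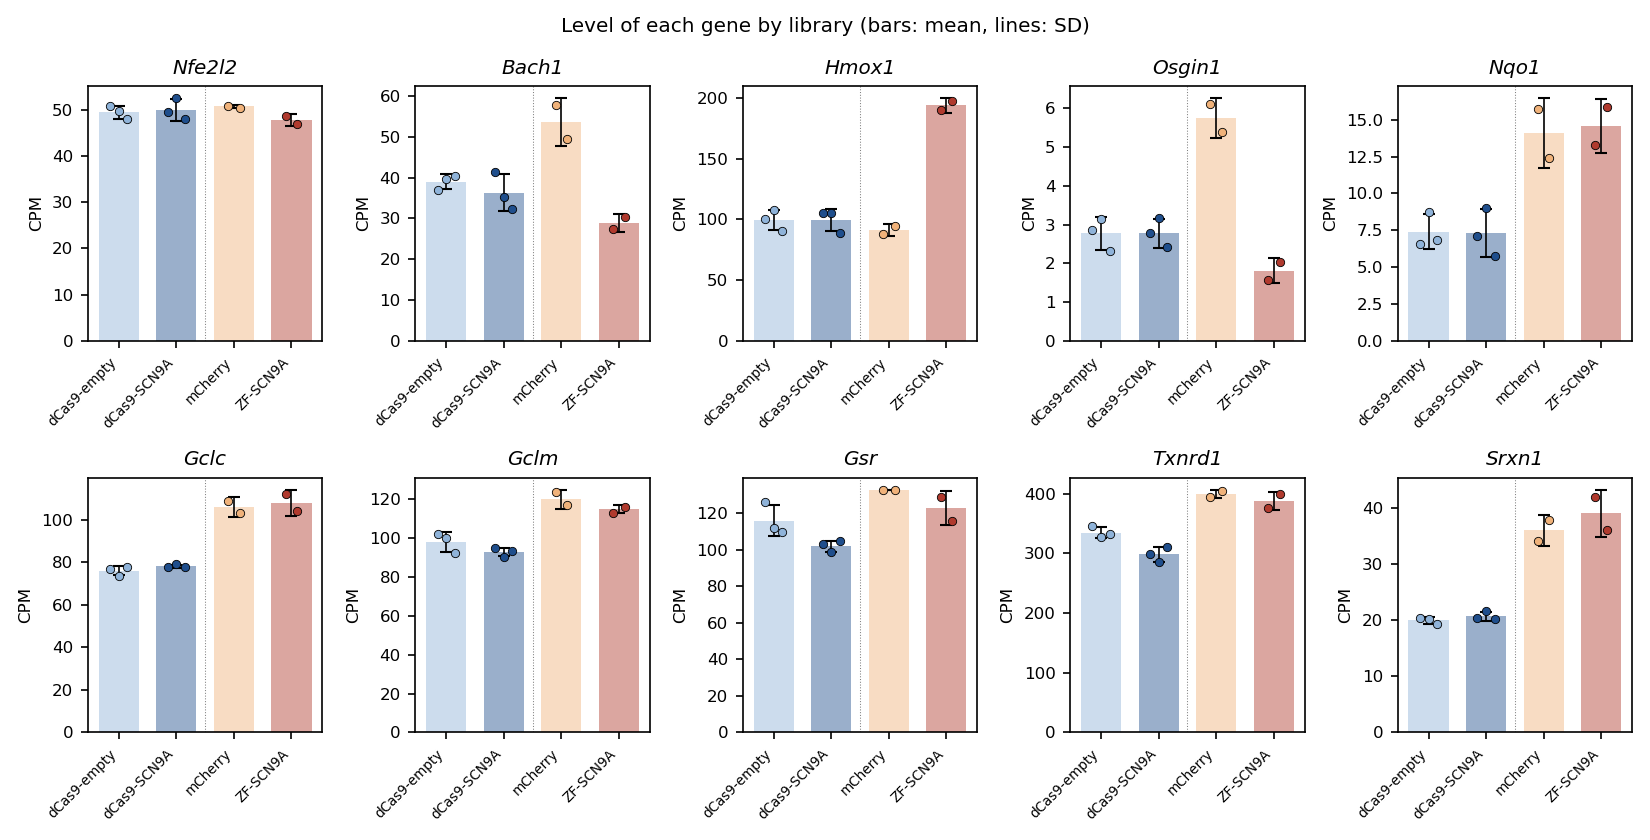
Level of the 10 genes in CPM (vertical axis, from 0) in each of the 10 libraries, as points, with the group mean as a bar and the SD as a line. The dotted line separates the dCas9 arm from the zinc-finger arm, each scaled on its own. Hmox1 stands at 190 and 198 CPM with the zinc finger against 87.7 and 94.8 with mCherry, while its 6 dCas9-arm libraries lie between 89 and 108.

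Hmox1 (ENSMUSG00000005413, chr8:75093621-75100589, plus strand, GRCm38) rose with the zinc finger. It stood at 87.7 and 94.8 CPM in the mCherry libraries (574 and 703 counts) and at 190 and 198 CPM in the ZF-SCN9A libraries (1197 and 872 counts). Both repressor libraries lay above both controls. The group means were 91.3 ± 4.95 and 194 ± 5.95 CPM (SD, n = 2 each), and the level was 2.12 times the control (95% interval 1.9 to 2.36). In edgeR's fit this was 1.08 ± 0.08 on the log2 scale (SE, adjusted p = 5.00e-39). Of the 12899 genes tested, 92 had a larger log2 fold change. Hmox1 was called in all 14 alternative analyses of the zinc-finger arm, with log2 fold changes of 0.95 to 1.14.

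With dCas9, Hmox1 stood at 100, 108 and 90.7 CPM in the dCas9-empty libraries and at 105, 105 and 89 CPM in dCas9-SCN9A. The groups overlapped, and the third library was the lowest of its group in both. Both means were 99.6 CPM, with SDs of 8.59 and 9.2 (n = 3 each). The log2 fold change was 0.00 ± 0.07 (SE, adjusted p = 0.998, edgeR), with a 95% interval of -0.16 to 0.16 that leaves out a rise as large as that with the zinc finger. The difference between the repressors, the change with dCas9 minus the change with the zinc finger over all 10 libraries, was tested as a contrast. For Hmox1 it was -1.08 ± 0.11 on the log2 scale (SE, adjusted p = 4.97e-07, edgeR), in a test that called 0.907% of 15766 genes.

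Bach1 (ENSMUSG00000025612, chr16:87698945-87733346, plus strand), the heme-sensitive repressor of Hmox1, fell with the zinc finger. Its mCherry libraries stood at 57.8 and 49.5 CPM (378 and 367 counts) and its ZF-SCN9A libraries at 27.4 and 30.4 CPM (173 and 134 counts). The groups did not overlap. The means were 53.6 ± 5.88 and 28.9 ± 2.14 CPM (SD, n = 2 each), which put the level at 53.7% of the control. The log2 fold change was -0.90 ± 0.13 (SE, adjusted p = 3.94e-10, edgeR), and 102 of 12899 genes had a lower one. Bach1 was called in all 14 alternatives, with log2 fold changes of -1.01 to -0.78.

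In the dCas9 arm Bach1 stood at 37, 39.6 and 40.3 CPM in the controls and at 41.3, 35.2 and 32.3 CPM with the repressor. The highest and the lowest of the 6 libraries were both dCas9-SCN9A. The log2 fold change was -0.10 ± 0.08 (SE, 95% interval -0.28 to 0.08, adjusted p = 0.732, edgeR). The difference between the repressors was 0.80 ± 0.15 on the log2 scale (SE, adjusted p = 0.00376, edgeR). It rested on 2 libraries of the zinc-finger arm: without mCherry replicate 1 it was 0.68 (adjusted p = 0.0851), and without ZF-SCN9A replicate 1 it was 0.72 (adjusted p = 0.117).

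Nfe2l2 (ENSMUSG00000015839, chr2:75675513-75704641, minus strand), which encodes NRF2 itself, was not called in either arm. It stood at 50.7, 49.7 and 47.9 CPM in dCas9-empty, 49.5, 52.5 and 47.9 in dCas9-SCN9A, 50.9 and 50.4 in mCherry, and 48.6 and 46.8 in ZF-SCN9A. The dCas9 groups overlapped, and the ZF-SCN9A libraries lay just under the mCherry ones. The log2 fold change was 0.02 ± 0.06 with dCas9 (SE, adjusted p = 0.961) and -0.08 ± 0.12 with the zinc finger (adjusted p = 0.801, edgeR). NRF2 is regulated largely through the stability of its protein, which was not measured here.

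Osgin1 (ENSMUSG00000074063, chr8:119434124-119446256, plus strand), an oxidative stress-induced growth inhibitor and a known NRF2 target, fell with the zinc finger. It is a scarce transcript, at 6.11 and 5.39 CPM in mCherry (40 counts in each library) and 1.58 and 2.04 CPM in ZF-SCN9A (10 and 9 counts). The groups did not overlap, and the level was 31.2% of the control (95% interval 0.178 to 0.547 times). Its log2 fold change was -1.68 ± 0.41 (SE, adjusted p = 0.00251, edgeR), with 13 of 12899 genes lower. The call ended without mCherry replicate 1 (-1.59, adjusted p = 0.0921) and without ZF-SCN9A replicate 1 (-1.48, adjusted p = 0.172), and DESeq2 gave the gene no adjusted p. Counted from 1 strand column in place of the unstranded one, the value was -2.55.

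In the dCas9 arm Osgin1 stood at 2.87, 3.15 and 2.31 CPM in the controls and at 2.78, 3.16 and 2.41 CPM with the repressor. Each repressor library lay close to the control of the same replicate number. The log2 fold change was 0.00 ± 0.22 (SE, 95% interval -0.46 to 0.47, adjusted p = 0.998, edgeR). The difference between the repressors, 1.69 ± 0.43 on the log2 scale (SE), missed the threshold (adjusted p = 0.052, edgeR). It passed in 2 of 15 alternatives, the one with no filter on low counts (adjusted p = 0.0457) and the one with a replicate block (adjusted p = 0.0211).

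**Figure D2:**
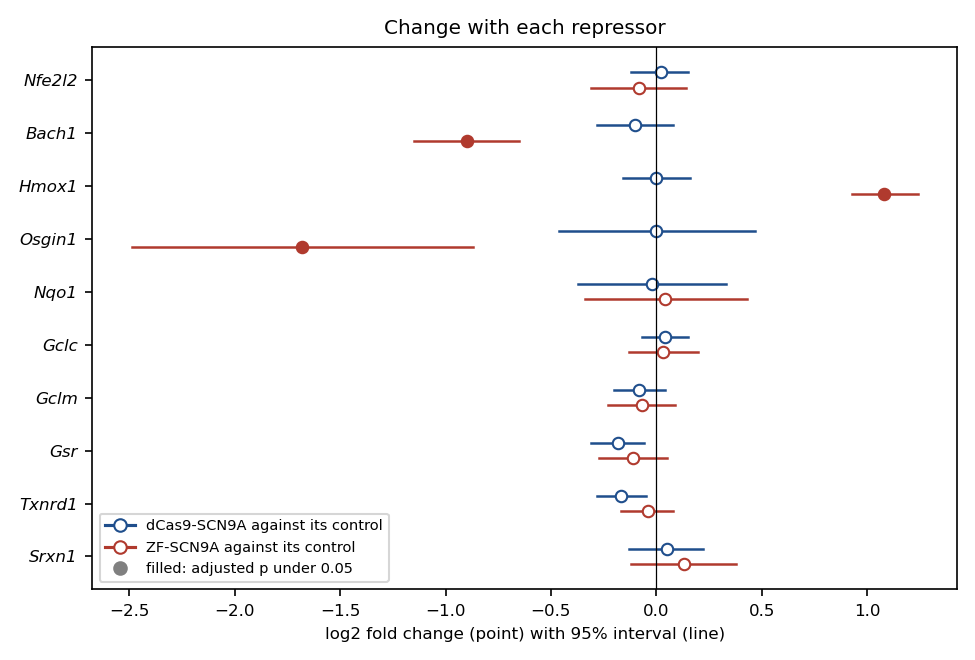
Log2 fold change of each gene (horizontal axis) with its 95% interval, for dCas9-SCN9A against dCas9-empty (blue) and ZF-SCN9A against mCherry (red). Filled points have an adjusted p under 0.05, and these are Hmox1 at 1.08, Bach1 at -0.90 and Osgin1 at -1.68, all with the zinc finger.

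The glutathione genes were not called in either arm. Gclc (ENSMUSG00000032350, chr9:77754535-77794485, plus strand) and Gclm (ENSMUSG00000028124, chr3:122245557-122270732, plus strand) encode the catalytic and modifier subunits of glutamate-cysteine ligase, the rate-limiting enzyme of glutathione synthesis. Gclc stood at 109 and 103 CPM in mCherry and at 112 and 104 CPM in ZF-SCN9A, which overlap. Its log2 fold change was 0.03 ± 0.08 with the zinc finger (SE, 95% interval -0.13 to 0.20, adjusted p = 0.899, edgeR). With dCas9 its 3 libraries, at 77.8, 79 and 77.7 CPM, stood at or just above the highest of the controls, which were at 76.6, 73.7 and 77.7 CPM (log2 fold change 0.04 ± 0.05, SE, adjusted p = 0.861, edgeR). Gclm stood at 124 and 117 CPM in mCherry and at 113 and 116 CPM in ZF-SCN9A, with no overlap (log2 fold change -0.07 ± 0.08, SE, adjusted p = 0.755, edgeR). In the dCas9 arm it stood at 102, 100 and 92.4 CPM in the controls and 94.8, 90.4 and 93.3 CPM with the repressor (log2 fold change -0.08 ± 0.06, SE, adjusted p = 0.67, edgeR). Of the exon bases of Gclm, 4.71% overlap the opposite-strand transcript Gm17494 and 3.88% a pseudogene, Gm6061, so reads from there cannot be given to Gclm alone. The other 9 genes share no exon base with another gene.

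Gsr (ENSMUSG00000031584, chr8:33652523-33698163, plus strand) encodes glutathione reductase, which returns oxidised glutathione to its reduced form. With dCas9 it stood at 103, 98.8 and 105 CPM against 126, 112 and 110 CPM in the controls, and the groups did not overlap. On the log2 scale the change was -0.18 ± 0.06 (SE, 95% interval -0.31 to -0.06) and did not pass over all genes (adjusted p = 0.312, edgeR). In the zinc-finger arm it stood at 129 and 116 CPM against 133 in each control (log2 fold change -0.11 ± 0.08, SE, adjusted p = 0.539, edgeR).

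Txnrd1 (ENSMUSG00000020250, chr10:82833951-82897712, plus strand) encodes cytosolic thioredoxin reductase, which keeps thioredoxin reduced. With dCas9 it stood at 299, 286 and 311 CPM against 346, 327 and 333 CPM in the controls, without overlap. This came to -0.17 ± 0.05 on the log2 scale (SE, 95% interval -0.28 to -0.05, adjusted p = 0.31, edgeR). In the zinc-finger arm it stood at 377 and 399 CPM against 395 and 405 CPM, which overlap (log2 fold change -0.04 ± 0.06, SE, adjusted p = 0.813, edgeR). Gsr and Txnrd1 were the 2 of the 10 genes with an unadjusted p under 0.05 in the dCas9 arm (10.1% of all genes), and neither was called in any of 16 alternatives. Their lowest adjusted p over the alternatives was 0.0734 and 0.0614.

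Srxn1 (ENSMUSG00000032802, chr2:152105516-152111376, plus strand) encodes sulfiredoxin, which repairs overoxidised peroxiredoxins. It stood at 34.1 and 38 CPM in mCherry and at 42.1 and 36.1 CPM in ZF-SCN9A, which overlap. Its log2 fold change was 0.13 ± 0.13 (SE, 95% interval -0.12 to 0.38, adjusted p = 0.704, edgeR). The dCas9 arm lay between 19.4 and 21.6 CPM in all 6 libraries (log2 fold change 0.05 ± 0.08, SE, adjusted p = 0.897, edgeR).

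Nqo1 (ENSMUSG00000003849, chr8:107388225-107403206, minus strand) encodes a quinone reductase that is widely used as a readout of NRF2 activity. It stood at 15.7 and 12.4 CPM in mCherry and at 13.3 and 15.9 CPM in ZF-SCN9A, so the control and repressor libraries interleave. The log2 fold change was 0.04 ± 0.20 (SE, adjusted p = 0.948, edgeR), and the 95% interval of -0.34 to 0.43 leaves out a rise of the size seen for Hmox1. With dCas9 it stood at 7.12, 9.04 and 5.77 CPM against 6.58, 8.75 and 6.87 CPM (log2 fold change -0.02 ± 0.17, SE, adjusted p = 0.98, edgeR). In both of these groups the second library was the highest.

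Without a model, the libraries of the 2 groups did not overlap for 3 of the 10 genes with dCas9 (Gclc higher, Gsr and Txnrd1 lower), beside 15.6% of all genes tested. With the zinc finger this held for 6 of the 10 (Hmox1 higher, and Gclm, Osgin1, Gsr, Nfe2l2 and Bach1 lower), beside 45.6% of all genes, a share that 2 libraries a group make large. In exact two-sided permutation tests over libraries the smallest p possible is 0.1 in the dCas9 arm and 0.333 in the zinc-finger arm, so none of these could reach 0.05. The zinc-finger p-values therefore lean on spread shared across genes: edgeR set the prior degrees of freedom as infinite for 88% of its genes, these 10 included. DESeq2, run on the same libraries, called 1.02% of 11245 genes, Hmox1 and Bach1 among them.

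**Figure D3:**
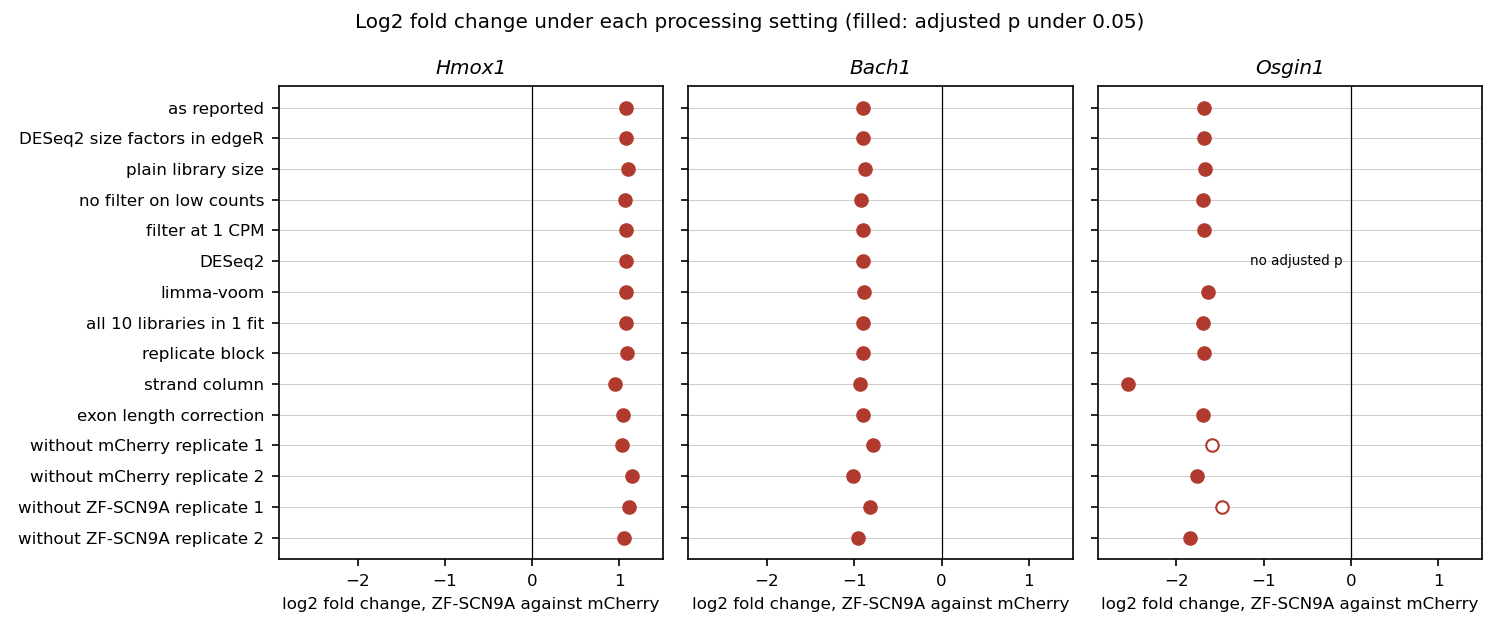
Log2 fold change of Hmox1, Bach1 and Osgin1 with the zinc finger (horizontal axis) under each processing setting (vertical axis), filled where the adjusted p is under 0.05. Hmox1 stays between 0.95 and 1.14 and Bach1 between -1.01 and -0.78, all filled, while Osgin1 is open without mCherry replicate 1 and without ZF-SCN9A replicate 1, and DESeq2 gave it no adjusted p.

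Levels of different genes were compared per kilobase of exon (RPKM, all 10 libraries scaled together). In dCas9-empty the order from the top was Hmox1 at 58.3 ± 5.23 RPKM (SD, n = 3), Txnrd1 at 48.4 ± 1.35, Gsr at 43.1 ± 3.21, Gclc at 20.7 ± 0.486, Gclm at 16 ± 0.868, Nfe2l2 at 13.3 ± 0.418, Srxn1 at 7.28 ± 0.219, Bach1 at 6.46 ± 0.292, Nqo1 at 4.88 ± 0.794 and Osgin1 at 1.06 ± 0.167. No neighbours in that order overlapped between libraries. The dCas9-SCN9A libraries gave the same order, and there only Bach1 (5.36 to 6.81 RPKM) and Nqo1 (3.81 to 5.98 RPKM) overlapped. In mCherry Txnrd1, at 54.5 ± 0.82 RPKM (SD, n = 2), stood above Hmox1, at 50.3 ± 2.6. The rest of that group's order was Gsr (46.6 ± 0.114), Gclc (27.2 ± 1.24), Gclm (18.5 ± 0.821), Nfe2l2 (12.9 ± 0.123), Srxn1 (12.3 ± 0.916), Nqo1 (8.75 ± 1.49), Bach1 (8.38 ± 0.941) and Osgin1 (2.08 ± 0.19), where Nfe2l2 overlapped Srxn1 and Nqo1 overlapped Bach1. In ZF-SCN9A Hmox1, at 106 ± 3.14 RPKM, stood above Txnrd1, at 52.6 ± 2.04. Below them came Gsr (42.8 ± 3.31), Gclc (27.6 ± 1.6), Gclm (17.5 ± 0.305), Srxn1 (13.3 ± 1.47), Nfe2l2 (12.1 ± 0.345), Nqo1 (9.03 ± 1.12), Bach1 (4.49 ± 0.327) and Osgin1 (0.651 ± 0.116), with Srxn1 and Nfe2l2 meeting at 12.3 RPKM. Nqo1, Srxn1 and Osgin1 were higher in mCherry (8.75 ± 1.49, 12.3 ± 0.916 and 2.08 ± 0.19 RPKM) than in dCas9-empty (4.88 ± 0.794, 7.28 ± 0.219 and 1.06 ± 0.167 RPKM). Bach1 (7.71 to 9.05 RPKM in mCherry, 6.12 to 6.66 in dCas9-empty), Gclc, Gclm and Txnrd1 were higher in mCherry too, without overlap. Hmox1 was lower in mCherry (48.5 to 52.1 RPKM) than in dCas9-empty (52.9 to 63.3), and Gsr and Nfe2l2 overlapped. These 2 controls differ in plasmid and in depth, and the gap between them was not tested.

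Across the 10 libraries, with each arm's mean removed, log2 CPM of Hmox1 and Bach1 had a Pearson r of -0.88, of Hmox1 and Osgin1 -0.87, and of Bach1 and Osgin1 0.93. For the genes not called, r with Hmox1 was 0.49 (Srxn1), 0.22 (Nqo1), 0.05 (Gclc), -0.25 (Txnrd1), -0.34 (Gclm), -0.40 (Gsr) and -0.46 (Nfe2l2). The values among Hmox1, Bach1 and Osgin1 describe the step between 2 mCherry and 2 ZF-SCN9A libraries, which all genes that moved in that arm share. Of 12833 genes tested in both arms, the 3 most like Hmox1 by this measure were Mamdc2 (0.985), Ankrd37 (0.979) and Man2b2 (0.973). The 3 most like Osgin1 were Eif4e3 (0.984), Maged2 (0.98) and Limd1 (0.98).

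Around these genes, 96 others of the axis were examined in 6 lists, also chosen with earlier results of these data known. With the zinc finger 5 of the 90 tested were called, 2 higher and 3 lower, beside the 4.72% of all genes. Their median log2 fold change was 0.06, where that of all genes was 0.00. With dCas9 none of 92 was called in edgeR's test, beside 0.041% of all genes. In that arm 6 had an unadjusted p under 0.05 (1 higher, 5 lower), beside 10.1% of all genes. DESeq2 called 1, the kinase gene Gsk3b. In edgeR the median log2 fold change of the 92 was 0.01, as for all genes. The difference between the repressors was called for none of 92 by edgeR or limma-voom, with 10 at an unadjusted p under 0.05 in edgeR, beside 10.9% of all genes.

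Heme, bilirubin and iron handling held 3 of the 5 calls, among 22 genes tested. Fth1, the heavy chain of the iron store ferritin, rose from 681 and 725 CPM in mCherry to 919 and 855 CPM in ZF-SCN9A (log2 fold change 0.34 ± 0.06, SE, adjusted p = 5.51e-06, edgeR). DESeq2 called it too (adjusted p = 4.25e-04), and the call ended without ZF-SCN9A replicate 1 (0.28, adjusted p = 0.0935). Processed copies of the ferritin genes exist in the mouse genome, so the Fth1 count is uncertain to that extent. Tfrc, the transferrin receptor that brings iron into the cell, fell from 198 and 157 CPM to 143 and 146 CPM (-0.30 ± 0.08, SE, adjusted p = 0.00446, edgeR). Ireb2, an iron regulatory protein that controls ferritin and transferrin receptor messages, fell from 224 and 198 CPM to 174 and 167 CPM (-0.30 ± 0.07, SE, adjusted p = 0.0019, edgeR). The calls of Tfrc and Ireb2 ended without mCherry replicate 1 (-0.12, adjusted p = 0.666, and -0.21, adjusted p = 0.211) or without either ZF-SCN9A library (adjusted p = 0.0632 to 0.203), and DESeq2 made neither.

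Thioredoxin, peroxiredoxin, catalase and superoxide dismutase genes held the other 2 calls, among 17 tested. Txnip, an inhibitor of thioredoxin, rose from 38.4 and 50.3 CPM to 63.6 and 68.1 CPM (0.56 ± 0.11, SE, adjusted p = 4.56e-05, edgeR). Without mCherry replicate 1 it stood at 0.39 (adjusted p = 0.0696), and in DESeq2 its adjusted p was 0.116. Sod1, the cytosolic superoxide dismutase, fell from 344 and 324 CPM to 276 and 301 CPM (-0.21 ± 0.07, SE, adjusted p = 0.0288, edgeR). That call ended without any 1 of 3 libraries: mCherry replicate 1 (adjusted p = 0.305), ZF-SCN9A replicate 1 (adjusted p = 0.588) or ZF-SCN9A replicate 2 (adjusted p = 0.109). In DESeq2 the adjusted p of Sod1 was 0.375.

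The remaining lists held no call with the zinc finger in edgeR's test as described, although Sqstm1, a regulator that binds KEAP1, was called with plain library size and by limma-voom, and Maff and Akr1b3 without mCherry replicate 2. Among 11 regulators of NRF2 and BACH1, the smallest p belonged to Cul3, the scaffold of the KEAP1 ubiquitin ligase (-0.21 ± 0.07, SE, adjusted p = 0.0687, edgeR), and it was called without mCherry replicate 2 and with a replicate block. Keap1, named after its values were seen, stood at -0.06 (adjusted p = 0.846) with the zinc finger and 0.06 (adjusted p = 0.813) with dCas9. Among 19 glutathione genes it was Mgst2, a microsomal glutathione transferase, at 1.63 ± 0.361 CPM in mCherry and 3.94 ± 2.04 in ZF-SCN9A (SD, n = 2 each, 9 to 34 counts, adjusted p = 0.0677). Among 8 NADPH genes it was Pgd of the pentose phosphate pathway (-0.16, adjusted p = 0.244), and among 13 genes of carbonyl and xenobiotic metabolism Ptgr1, a prostaglandin reductase (-0.44, adjusted p = 0.101).

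With dCas9 the gene with the smallest p in each list was Gsk3b (-0.20, adjusted p = 0.21), which encodes a kinase that marks NRF2 for degradation, the glutathione-conjugate exporter Abcc1 (-0.12, adjusted p = 0.462), the mitochondrial thioredoxin Txn2 (0.13, adjusted p = 0.41), the malic enzyme Me1 (-0.13, adjusted p = 0.393), Ireb2 (-0.14, adjusted p = 0.417) and Ugdh (-0.12, adjusted p = 0.592). The genes called with the zinc finger had dCas9 log2 fold changes of 0.07 (Fth1), 0.12 (Txnip), -0.14 (Ireb2), 0.01 (Tfrc) and 0.02 (Sod1). For none of these 5 did the difference between the repressors pass, the smallest adjusted p being 0.196, for Fth1. That of Txnip passed with no filter on low counts, of Fth1 without dCas9-SCN9A replicate 2, of Tfrc without mCherry replicate 2, and of all 3 with a replicate block. In that contrast the other lists were led by Sqstm1 (-0.23, adjusted p = 0.283), Mgst2 (-1.15, adjusted p = 0.266), Prdx1 (0.23, adjusted p = 0.298), Pgd (0.14, adjusted p = 0.576) and Ptgr1 (0.47, adjusted p = 0.267).

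**Figure D4:**
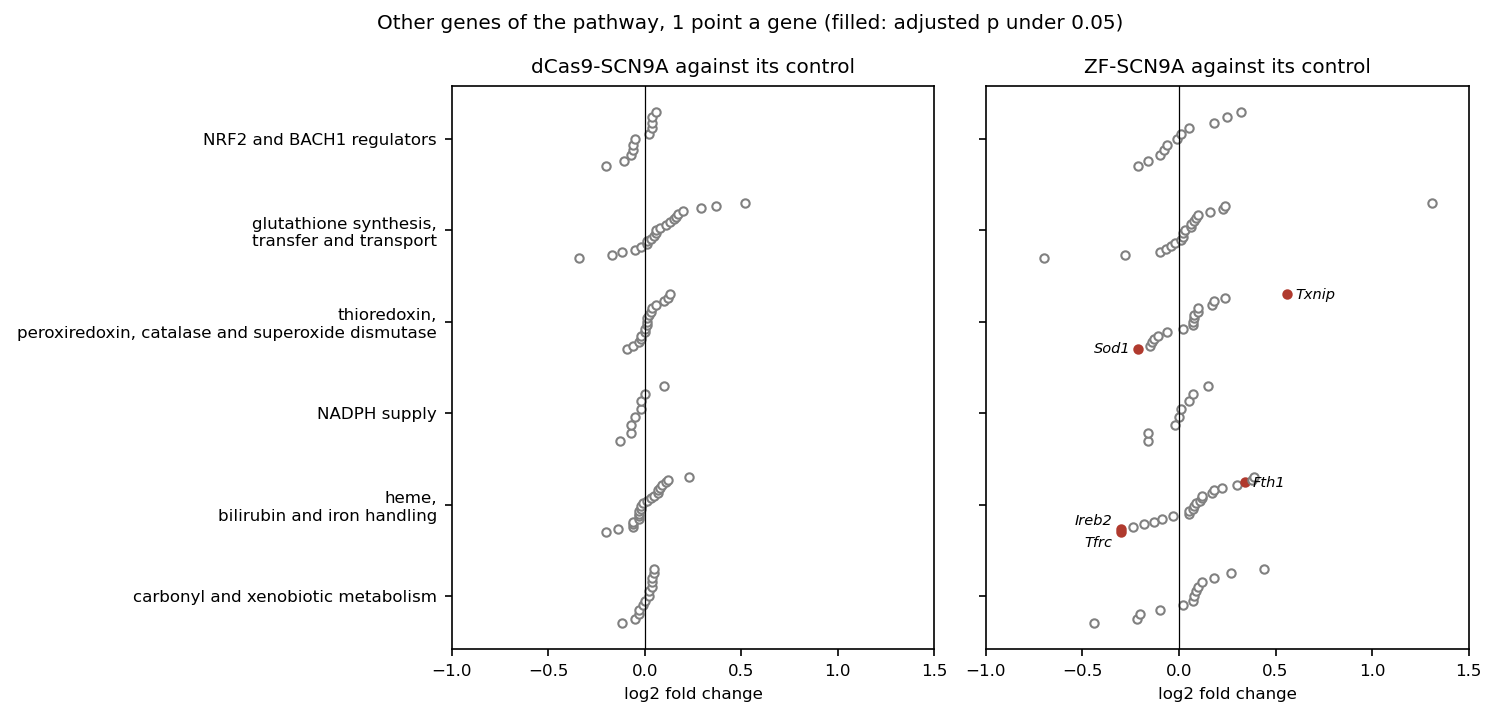
Log2 fold change (horizontal axis) of the other pathway genes, 1 point a gene, in 6 lists for dCas9-SCN9A (left) and ZF-SCN9A (right) against their controls. No point is filled on the left, and on the right the 5 filled points are Txnip (0.56), Fth1 (0.34), Sod1 (-0.21), Tfrc (-0.30) and Ireb2 (-0.30).

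The libraries held 17770383 to 18984566 gene counts in dCas9-empty and 15356843 to 16351528 in dCas9-SCN9A. They held 6588126 and 7478956 in mCherry and 6297752 and 4412097 in ZF-SCN9A. Scn9a, the gene aimed at, stood at 38.4% of its control with dCas9 (adjusted p = 2.24e-09) and at 29.5% with the zinc finger (adjusted p = 1.71e-34, edgeR). Plasmid sequences took 1.189% to 1.371% as many reads as genes did in dCas9-empty and 1.465% to 1.704% in dCas9-SCN9A. The share was 2.828% and 2.896% in mCherry and 3.919% and 4.045% in ZF-SCN9A. Unmapped reads were 6.992% to 7.18% in dCas9-empty, 7.38% to 8.057% in dCas9-SCN9A, 6.997% and 7.361% in mCherry, and 9.333% and 8.959% in ZF-SCN9A. The part of these gaps between repressor and control in the changes reported was not tested. Of 12 markers of the Neuro2a lineage 11 averaged at least 1 CPM in every group, with sums of 4160 to 4660 CPM in the dCas9 arm and 3030 to 3090 in the other. Summed over 6 markers each, fibroblast markers came to 8.32 to 20.9 CPM, glial markers to 4.32 to 7.5, immune markers to 0.827 to 2.47 and endothelial markers to 17.7 to 25.8. Emcn was at 0 in all 10 libraries, and Ptprc, Itgam, Lum and Thy1 were each at 0 in at least 1 group. With the zinc finger, 4 of the 11 lineage markers tested were called (Gata2 -0.58, Hand2 -0.20, Chga 0.25 and Dbh 0.71 on the log2 scale). Of 3 fibroblast markers tested 1 was called, Col1a1 (1.07, adjusted p = 0.0452, edgeR). The share called over all genes was 4.72%. The part of these marker changes in the changes of Hmox1, Bach1 and Osgin1 was not tested. In bulk RNA, fewer cells of a kind and less RNA per cell cannot be told apart, and neither can a change in every cell and a larger change in the transfected share.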

How the data were processed

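Each deposited file lists unnormalised counts of reads per gene in STAR's layout. The submitters' processing notes name bcl2fastq 2.20, STAR 2.7.3a, DESeq2 and the build GRCm38; no source used here gives the annotation release or how reads were counted. The unstranded column was used, since the strand columns held about equal reads. Of 55401 identifiers, 55141 matched GENCODE M21, which gave symbols, coordinates and exon lengths. Entries that name no gene (24.99% to 28.24% of reads) and 4 plasmid entries were left out.

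Counts were tested with edgeR 4.0.16 (limma 3.58.1, R 4.3.3): TMM scaling, filterByExpr by group, robust quasi-likelihood fits, two-sided. Adjusted p-values without another tool's name come from this test. Each repressor was fitted with its own control, on 4 (dCas9) and 2 (ZF) residual degrees of freedom; their difference was a contrast over all 10 libraries, none of which the arms share. The fits were first run on simulated counts that gave every gene of an arm the same spread. That run could not check the spread shared across genes, on which the zinc-finger p-values lean. All replicate pairs differed beyond sampling noise (chi-square per degree of freedom 1.92 to 7.56). Log2 CPM in the correlations used a prior count of 2. Named were all 10 members, every pathway gene called, and in a list without calls the gene with the smallest p. Members and lists were chosen with earlier results of these data known. Alternatives were DESeq2's size factors, plain library size, no filter, a filter at 1 CPM, DESeq2 1.42.0, limma-voom, 1 fit of all libraries, a replicate block, the strand column, a lowess correction for exon length, and each library left out.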

Additional observations from a re-analysis of the deposited data

Results flagged for a closer look

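The effects of the repressors on Hmox1 and on Bach1 differed in a test of the difference itself (the change with dCas9 minus the change with the zinc finger, edgeR, over 10 libraries). For Hmox1 it was -1.08 on the log2 scale (95% interval -1.31 to -0.84, adjusted p = 4.97e-07), and it passed in all 15 alternatives. Both ZF-SCN9A libraries lay above both mCherry libraries, and the dCas9 groups overlapped. For Bach1 it was 0.80 (95% interval 0.49 to 1.11, adjusted p = 0.00376), and it passed in 13 of 15 alternatives, at 0.68 to 0.92, with the exceptions of those without mCherry replicate 1 (adjusted p = 0.0851) and without ZF-SCN9A replicate 1 (adjusted p = 0.117). The arms also differ in control plasmid and in depth, and these cannot be told apart from the kind of repressor.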

How the results depend on the processing

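The zinc-finger calls of Hmox1 and Bach1 held in all 14 alternatives and that of Osgin1 in 11 of 13. No member was called with dCas9 in an alternative that gave it an adjusted p; DESeq2 gave none for Nqo1, Srxn1, Osgin1 and Bach1. Counts of genes moved more, and the cause was not tested. With dCas9, 6 genes were called, but 172 with no filter, 69 with DESeq2, 29 in 1 fit of all libraries, 262 with a replicate block, 13 from the strand column, 2 with the exon length correction, and 1 to 34 with a library left out (3 without dCas9-empty replicate 2, 21 without replicate 3, and 34, 17 and 1 without dCas9-SCN9A replicates 1, 2 and 3). Pathway genes called went from 0 to 1, Gsk3b, with DESeq2 and with the replicate block. With the zinc finger, 609 genes became 115 (21 higher, 94 lower) with DESeq2, 348 in 1 fit of all libraries, 283 from the strand column, and 201 to 787 with a library left out (262 without mCherry replicate 1, 201 and 249 without ZF-SCN9A replicates 1 and 2). Its 5 pathway calls became 7 with the replicate block (Cul3 and Sqstm1 added), 6 with plain library size and 6 with limma-voom (Sqstm1 added), 1 with DESeq2, 2 in 1 fit of all libraries, 2 from the strand column, and 1 to 9 with a library left out (1 without mCherry replicate 1, 9 without mCherry replicate 2, 1 and 2 without ZF-SCN9A replicates 1 and 2). Genes called in the difference went from 143 to 274 with no filter, 89 with limma-voom, 429 with the replicate block, and 71 to 241 with a library left out (241 without dCas9-empty replicate 3, 79 without mCherry replicate 1, 71 and 83 without ZF-SCN9A replicates 1 and 2). Of the pathway genes it called 0, but 4 with the replicate block (Fth1, Sqstm1, Tfrc and Txnip), 1 with no filter (Txnip), 1 without dCas9-SCN9A replicate 2 (Fth1) and 2 without mCherry replicate 2 (Akr1b3 and Tfrc). Members called in it were 2, with Osgin1 added under no filter and under the replicate block, and 1 to 2 with a library left out.

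Replicate numbers paired the dCas9 samples in part. Deviations of same-numbered dCas9-arm libraries correlated at 0.24, 0.16 and 0.04, and those of differently numbered ones at -0.23 to 0.10. Replicates 1 and 2 of dCas9-empty correlated best with the repressor library of the same number, but replicate 3 with repressor replicate 2 (0.10). With the zinc finger the values were 0.07 for the same number and -0.07 otherwise. These are the same size with opposite signs by construction, since each group has 2 libraries and its mean was removed. The replicate block gave 262 calls with dCas9 and 569 with the zinc finger. Of the members' calls, it changed that of the Osgin1 difference (1.70, adjusted p = 0.0211, edgeR).

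Log2 fold changes near 0, none of them called, changed sign. With dCas9, Hmox1 stood at 0.00 with DESeq2 size factors, 0.02 with plain library size, 0.01 with the 1 CPM filter and -0.06 to 0.08 with a library left out. Osgin1 stood at 0.00 with no filter, -0.10 from the strand column, -0.02 with the exon length correction and -0.11 to 0.11 with a library left out. From the strand column Gclc and Nfe2l2 each stood at -0.04, and with a library left out Nfe2l2 at -0.02 to 0.05 and Nqo1 at -0.20 to 0.13. With the zinc finger, Nqo1 stood at -0.09 from the strand column, 0.00 with the exon length correction and -0.13 to 0.22 with a library left out, Txnrd1 at 0.00 from the strand column, and Gclc and Srxn1 at -0.03 to 0.09 and 0.00 to 0.22 with a library left out. In the difference, leaving out a library gave -0.05 to 0.04 for Gclm, -0.24 to 0.12 for Nqo1, -0.04 to 0.08 for Gclc, -0.17 to 0.06 for Srxn1 and -0.14 to 0.02 for Gsr. Depth limits Osgin1 most, at 9 to 59 counts a library. A fit that leaves 1 library in a zinc-finger group assumes that it varies like the other group.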
